A study of Mus musculus with 19 samples.

Results

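The genes described here are 8 fat cell genes whose levels differed widely between lungs of one series of mice: Adipoq, Retn, Cfd, Fabp4, Plin1, Cidec, Lipe and Car3. They were found among the 41174 probes of a 2-colour array by the accession of each probe, which gave 12 probes for the 8 genes. All 8 genes passed the filter on dim probes and were among the 19315 genes tested. The mice were male MutaMouse animals (labelled as a transgenic strain) aged 25 weeks, which carry a reporter transgene for scoring mutations. Daily gavage lasted 28 days, and a part of the lung was collected 3 days later. The groups were 5 controls (dosage label none, vehicle in the series title), 5 mice at a low dose of benzo(a)pyrene (25 mg/kg/day), 4 at a middle dose (50 mg/kg/day) and 5 at a high dose (75 mg/kg/day). Benzo(a)pyrene (BaP) is a carcinogen in smoke and soot that forms when organic matter burns incompletely. The series describes 5 mice per group, and the fifth array at the middle dose was not analysed here. Each mouse had its own array, on which its lung RNA was set against a common reference RNA pooled from mouse cell lines. Values are log2 ratios of lung over reference, in which a difference of 1 is a doubling, and errors are given as SD over mice or SE of a fit.

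Fat cells, or adipocytes, store triglyceride in a large lipid droplet, break it down in fasting and secrete hormones into the blood. Much of this programme is switched on during differentiation by PPARG and factors of the C/EBP family. Adipocytes are not a main cell type of the alveoli, but fat depots lie beside the airways, the heart and the mediastinum. Adipoq encodes adiponectin, a hormone secreted by adipocytes, Retn encodes resistin, a hormone of adipocytes in mice, and Cfd encodes complement factor D, also called adipsin. Fabp4 is a fatty acid binding protein that macrophages and capillary endothelium express as well. Plin1 coats the lipid droplet, Cidec promotes fusion of droplets, and Lipe is hormone-sensitive lipase. Car3 is a carbonic anhydrase abundant in fat and skeletal muscle.

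The genes lie on 6 chromosomes, Adipoq on chromosome 16, Cfd on 10, Retn on 8, Cidec on 6, Plin1 and Lipe on 7, and Fabp4 and Car3 on 3. Promoter windows of 300 bases, from 250 bases before a start site to 50 after it, were given by RefSeq (GRCm38.p6) for 6 of the 8 genes, in 8 windows. Fabp4 and Car3 were not among them. Because the members moved together, the windows were searched on both strands for the letters TATAAA of the TATA box, for CCAAT, for AGGTCA as a PPAR element and for TTNNGCAA as a C/EBP element. TATAAA stood in 0 of the 8 windows and AGGTCA in 0, against 13.6% and 16.3% of the 32851 windows of all genes. CCAAT stood in 1 window, that of Adipoq, and TTNNGCAA in 2, those of Plin1 and Cidec, against 37.4% and 10.8% of all windows. The windows with a match are shown with the matched letters in capitals, and that of Cfd, the gene with the widest range, is shown as one without a match. Letters that match a motif describe the window and are no evidence of binding.
Adipoq, chr16:23146286-23146585, plus strand: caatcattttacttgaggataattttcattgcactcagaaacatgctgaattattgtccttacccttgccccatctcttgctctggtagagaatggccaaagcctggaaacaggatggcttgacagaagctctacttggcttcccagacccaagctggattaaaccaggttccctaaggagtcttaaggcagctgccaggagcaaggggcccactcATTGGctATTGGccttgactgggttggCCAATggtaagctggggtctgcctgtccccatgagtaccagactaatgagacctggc
Plin1, chr7:79732727-79733026, minus strand: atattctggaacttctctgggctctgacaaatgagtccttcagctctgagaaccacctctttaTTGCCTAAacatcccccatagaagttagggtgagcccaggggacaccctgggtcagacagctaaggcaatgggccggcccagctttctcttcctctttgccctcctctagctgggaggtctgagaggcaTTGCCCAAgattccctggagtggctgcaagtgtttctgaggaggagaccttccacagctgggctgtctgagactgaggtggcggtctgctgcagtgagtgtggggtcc
Cidec, chr6:113434715-113435014, minus strand: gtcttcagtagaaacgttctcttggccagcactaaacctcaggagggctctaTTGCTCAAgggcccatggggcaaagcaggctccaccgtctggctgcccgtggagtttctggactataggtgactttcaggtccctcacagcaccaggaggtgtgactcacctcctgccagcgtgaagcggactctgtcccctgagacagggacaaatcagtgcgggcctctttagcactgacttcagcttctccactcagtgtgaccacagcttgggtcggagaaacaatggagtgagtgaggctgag
Cfd, chr10:79890603-79890902, plus strand: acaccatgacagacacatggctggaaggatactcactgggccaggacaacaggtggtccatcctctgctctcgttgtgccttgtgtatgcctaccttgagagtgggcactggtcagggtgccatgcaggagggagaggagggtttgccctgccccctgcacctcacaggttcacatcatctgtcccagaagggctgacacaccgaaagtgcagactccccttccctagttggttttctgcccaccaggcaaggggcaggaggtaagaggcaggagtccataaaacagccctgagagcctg
The 3 CCAAT matches of Adipoq began at -34, -27 and -7 from its start site, and the C/EBP matches at -187 and -58 in Plin1 and -198 in Cidec. None of the 4 motifs stood in more than 2 of the 8 windows.

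All arrays carried lung RNA by its defining markers. Sftpc, the surfactant gene of alveolar type 2 cells, had log2 ratios between 6.01 and 8.02, and Ager, a marker of alveolar type 1 cells, between 4.76 and 5.55. The share of spots well above background in lung was 45.59% to 62.89% per array. The scanner's quality report marked 4 arrays for evaluation, those of controls 1 and 3, mouse 12 (middle dose) and mouse 20 (high dose). The arrays lay on 6 slides, each with more than 1 group.

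The fat cell genes varied widely between lungs of one group, and the same few lungs were high in most of them. Over the 8 genes, the mean log2 ratio per lung was 1.40 to 3.93 in controls, 0.48 to 1.82 at the low dose, 0.55 to 3.30 at the middle dose and 0.55 to 3.33 at the high dose. The 5 highest lungs were those of controls 4 and 5, mouse 20 at the high dose, and mice 13 and 14 at the middle dose. Controls 4 and 5 and mouse 13 were among the 5 highest arrays for 8 of the 8 genes, mouse 20 for 7 and mouse 14 for 6. Mice at the low dose had the lowest spread of the mean, with an SD of 0.56 (n = 5), against 1.12 in controls (n = 5). In mice 6, 7, 9 and 10 of that group only 3 or 4 of the 8 genes were well above background, against 5 to 8 in controls. The floor of the measurement therefore limits this spread. In RNA of whole tissue, fewer fat cells in a piece of lung and less of these RNAs per fat cell cannot be told apart.

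**Figure D1:**
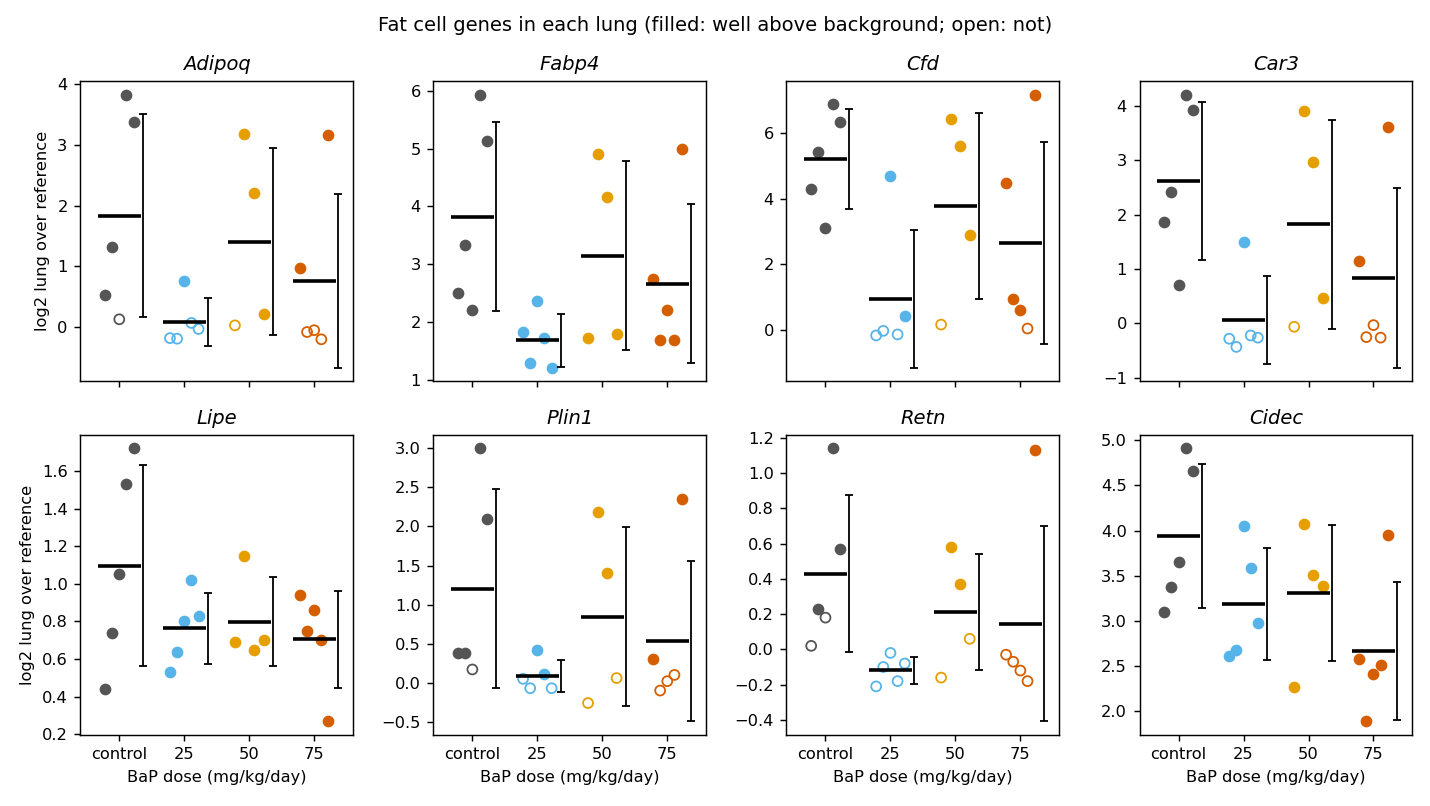
Log2 ratio of lung over reference RNA for each fat cell gene (vertical axis, own scale per gene) in each mouse, by BaP dose in mg/kg/day (horizontal axis). Points are mice, horizontal lines group means and bars 1 SD (n = 5, 5, 4 and 5), and open points were not well above background in lung. Points near the floor and points far above it stand in each of the 3 BaP groups for Cfd, for example 7.17 and 0.04 at the high dose.

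Of the secreted proteins, Adipoq had log2 ratios of 0.53, 1.32, 0.13, 3.83 and 3.38 in controls 1 to 5. It had -0.18, -0.19, 0.76, 0.07 and -0.03 in mice 6 to 10 at the low dose, 0.03, 3.18, 2.21 and 0.21 in mice 12 to 15 at the middle dose, and 0.97, -0.08, -0.05, -0.20 and 3.17 in mice 16 to 20 at the high dose. The high lungs were 2 controls, 2 mice at the middle dose and 1 mouse at the high dose, and every dose group overlapped the controls. The spot was well above background on 10 of 19 arrays, so the low ratios are at the floor of the measurement.

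Cfd had the widest range of the 8, with ratios 7.33 apart on the log2 scale between the lowest and the highest lung. The lowest, mouse 6, was not well above background, so this width is limited by the floor of the measurement. Its ratios were 4.30, 5.42, 3.11, 6.90 and 6.33 in controls 1 to 5 and -0.17, -0.03, 4.69, -0.14 and 0.42 in mice 6 to 10 at the low dose. They were 0.16, 6.43, 5.62 and 2.90 in mice 12 to 15 at the middle dose, and 4.47, 0.93, 0.62, 0.04 and 7.17 in mice 16 to 20 at the high dose. All controls were at 3.11 or above, a level that 5 of the 14 treated lungs also reached. Cfd was well above background in lung on 5 of 5 controls, 2 of 5 mice at the low dose, 3 of 4 at the middle dose and 4 of 5 at the high dose. In lung intensity above background this ran between 0 and 13691 units. The reference channel of the Cfd spot, which carried the same RNA on every array, was also brightest on the arrays with the brightest lung signal, at 87 in mouse 20 and 62.5 in control 4 against -0.5 in mouse 18.

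Retn had the narrowest range among the secreted proteins, with ratios of 0.02, 0.23, 0.18, 1.14 and 0.57 in controls 1 to 5. It had -0.21, -0.10, -0.02, -0.18 and -0.08 in mice 6 to 10 at the low dose, -0.16, 0.58, 0.37 and 0.06 in mice 12 to 15 at the middle dose, and -0.03, -0.07, -0.12, -0.18 and 1.13 in mice 16 to 20 at the high dose. Its spot was well above background on 6 of 19 arrays and on 0 of 5 at the low dose, against 3 of 5 controls. These spots set only a rough bound, 1.42-fold lower at the low dose than in controls by mean lung intensity. It is not a strict bound, because controls 1 and 3 were not well above background either. Mean log2 lung intensities were 6.13 at the low dose and 6.63 in controls, and the limma adjusted p of the difference was 0.57. Retn at the low dose was the only member and dose with no overlap with the controls in the probe used. The groups did not overlap in 1.45% of all genes at this dose (4.5% at the middle dose and 4.71% at the high dose). The nearest lungs, mouse 8 at -0.02 and control 1 at 0.02, were both not well above background. The other Retn probe overlapped, with -0.25 to 0.08 at the low dose and -0.12 to 0.94 in controls.

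Of the genes of fatty acid and lipid droplet handling, Fabp4 was well above background on all 19 arrays. Its ratios were 2.50, 3.34, 2.22, 5.93 and 5.13 in controls 1 to 5 and 1.84, 1.30, 2.36, 1.73 and 1.22 in mice 6 to 10 at the low dose. They were 1.73, 4.90, 4.17 and 1.80 in mice 12 to 15 at the middle dose, and 2.74, 1.70, 2.21, 1.70 and 5.00 in mice 16 to 20 at the high dose. The range over all mice was 4.71, and the 13 lowest lungs lay between 1.22 and 2.74, clear of background. A further Fabp4 probe ran from 0.89 to 4.89, and the dimmest of its 3 probes from -0.10 to 1.61, well above background on 7 arrays.

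Plin1 had ratios of 0.38, 0.38, 0.17, 3.00 and 2.10 in controls 1 to 5, and 0.05, -0.07, 0.42, 0.11 and -0.07 in mice 6 to 10 at the low dose. It had -0.26, 2.18, 1.41 and 0.06 in mice 12 to 15 at the middle dose and 0.30, -0.10, 0.02, 0.10 and 2.35 in mice 16 to 20 at the high dose. The 5 lungs above 1 were the same 5 that were highest in the mean, and the other 14 lay between -0.26 and 0.42. Plin1 was well above background on 10 of 19 arrays, so many of these low ratios are at the floor of the measurement.

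Cidec was well above background on all arrays and followed the mean less closely. Its ratios were 3.1, 3.38, 3.65, 4.91 and 4.66 in controls 1 to 5, and 2.61, 2.68, 4.05, 3.59 and 2.98 in mice 6 to 10 at the low dose. They were 2.27, 4.07, 3.51 and 3.39 in mice 12 to 15 at the middle dose and 2.58, 1.89, 2.41, 2.51 and 3.95 in mice 16 to 20 at the high dose. At the high dose 4 of 5 mice lay below the lowest control, and mouse 20 lay within the control range.

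Lipe was the member that stood apart. Its ratios were 0.44, 0.74, 1.05, 1.53 and 1.72 in controls 1 to 5, and 0.53, 0.64, 0.80, 1.02 and 0.83 in mice 6 to 10 at the low dose. They were 0.69, 1.15, 0.65 and 0.70 in mice 12 to 15 at the middle dose and 0.94, 0.75, 0.86, 0.70 and 0.27 in mice 16 to 20 at the high dose. Controls 4 and 5 and mouse 13 were its 3 highest lungs, but mouse 20, among the 5 highest in the mean, was its lowest. Lipe was well above background on all arrays, so its narrow range of 1.45 was not set by a floor. Its other probe ran from 0.02 to 1.02.

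Car3 had ratios of 1.87, 2.41, 0.71, 4.20 and 3.91 in controls 1 to 5 and -0.28, -0.43, 1.50, -0.22 and -0.26 in mice 6 to 10 at the low dose. It had -0.06, 3.90, 2.97 and 0.47 in mice 12 to 15 at the middle dose, and 1.14, -0.25, -0.03, -0.26 and 3.60 in mice 16 to 20 at the high dose. All 5 controls were above 0.5, and 9 of the 14 treated lungs were below it, at -0.43 to 0.47. The spot was well above background on 11 of 19 arrays, among them all 5 controls, so most of these low ratios are at the floor of the measurement. The reference channel of control 5 read 214 units for Car3, against 16 to 43.5 on the other arrays, which lowers the ratio of that lung.

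**Figure D2:**
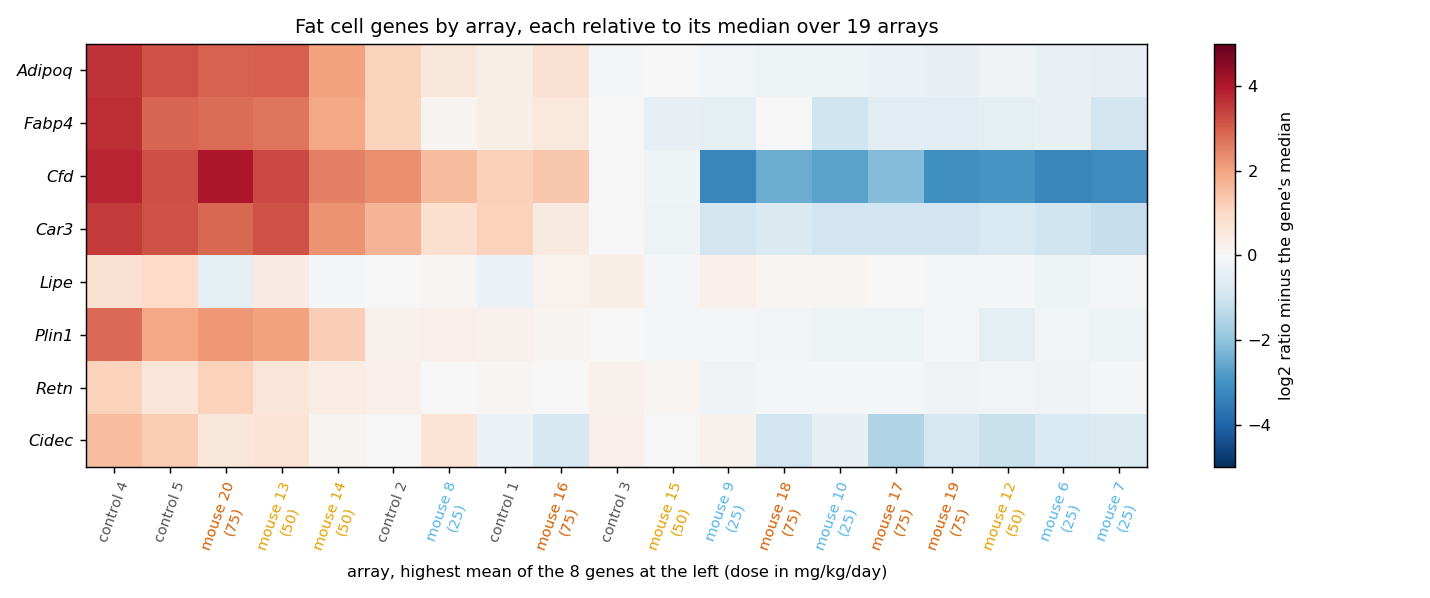
Heat map of the 8 fat cell genes (rows) in 19 lungs (columns, ordered by the mean of the 8 genes, labels coloured by dose), as log2 ratio minus the median of the gene over all lungs. The 5 lungs at the left, 2 controls and 3 treated mice, are red in most rows, while the row of Lipe shows little colour and mouse 20 is blue in it.

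The members varied together between lungs. Pearson's r and Spearman's rho were computed for all 28 pairs over the 19 mice, with two-sided permutation tests and Benjamini-Hochberg adjustment over the pairs. The median r was 0.83 (range 0.30 to 0.99), and 23 of 28 pairs had an adjusted p under 0.05 by r and 21 by rho. The 15 pairs among Adipoq, Fabp4, Cfd, Car3, Plin1 and Retn had r between 0.83 and 0.99 and rho between 0.80 and 0.97. Their adjusted p for r was 1.7e-05, from a p of 1e-05, the smallest that these permutations can give. Without the 2 lungs farthest from the median of the first gene of a pair, r was 0.79 to 0.98 in these 15 pairs.

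Adipoq and Fabp4 had the highest r, 0.99 (rho 0.92, and 0.98 without 2 lungs). Adipoq and Plin1 had r = 0.98 (rho 0.87), and Cfd and Car3 r = 0.96 (rho 0.95). Cidec correlated with these 6 genes at r = 0.76 to 0.81 (rho 0.68 to 0.84, adjusted p of 0.00024 or less for r), and at 0.61 to 0.75 without 2 lungs. The 7 pairs of Lipe had r between 0.30 and 0.57 and rho between 0.24 and 0.42. Of these, 2 passed by r (Cidec, adjusted p = 0.013, and Adipoq, adjusted p = 0.047) and 0 by rho. Without 2 lungs r was 0.41 with Cfd and between -0.25 and 0.13 in the other 6 pairs, so the 2 relations that passed rest on those lungs.

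**Figure D3:**
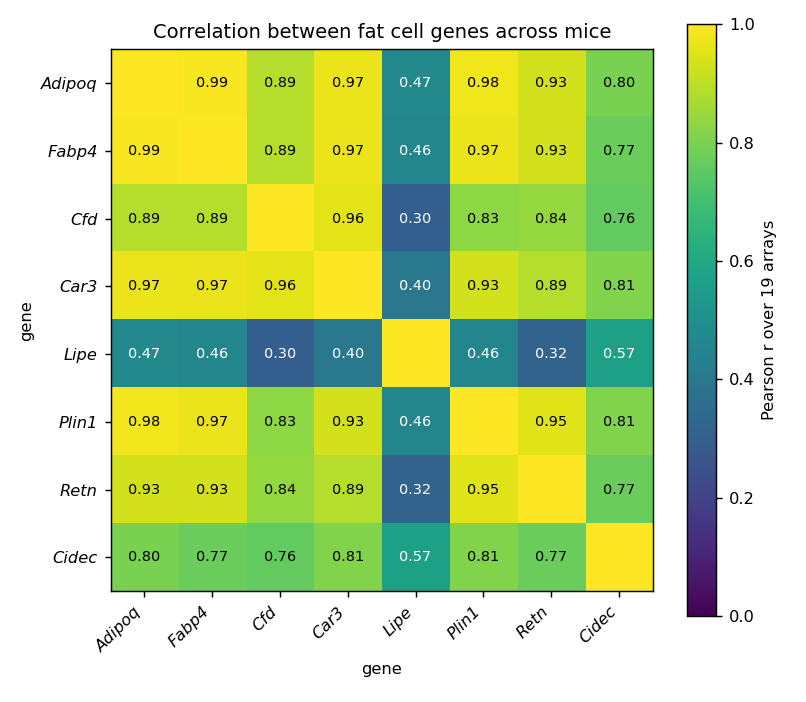
Pearson r between each pair of fat cell genes over 19 mice, from 0 (dark) to 1 (light). The 15 pairs among Adipoq, Fabp4, Cfd, Car3, Plin1 and Retn lie between 0.83 and 0.99, those of Cidec with them at 0.76 to 0.81, and the row and column of Lipe at 0.30 to 0.57.

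The joint variation was also present within dose groups and within slides. After the mean of each dose group was subtracted, the median r over the 28 pairs was 0.85, and after the mean of each slide was subtracted it was 0.88. Without the 5 lungs with the highest mean, an alternative added after the values were seen, the median r over the other 14 lungs was 0.64. Among the 15 pairs of the 6 genes r was then 0.56 to 0.95, and 14 pairs passed. In these 14 lungs Retn was well above background only in control 2, and Adipoq, Plin1 and Car3 were not so in most. These r therefore rest in large part on readings at the floor. The pairs of Cidec had r of 0.31 to 0.63, of which 1 of 6 passed, and those of Lipe -0.08 to 0.30. Without the 4 arrays marked for evaluation the median was 0.83 over 15 lungs, and the pairs of Lipe had r of 0.59 to 0.79. Of those, 7 passed by r and 2 by rho, and r was 0.36 to 0.46 without 2 further lungs. The first principal component of the 8 genes, each scaled to the same variance, held 81.97% of their variance, and the next 10.84%. The mean over the 8 genes lay between 0.48 and 3.93, and the widest gap between neighbouring lungs was 0.69, from 2.61 to 3.30. Whether the lungs form separate clusters was not tested, and Plin1 had a gap between the 5 highest lungs and the rest.

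Whether dose accounts for this variation was asked with limma over all 19315 genes, as a difference of each dose from control, as a linear trend and as any difference among the 4 groups. No member passed an adjusted p of 0.05 in any of these tests. Of the 8 members 0 passed at the low dose, against 0.0518% of all genes. The corresponding counts were 0 of 8 at the middle dose (1.09% of all genes), 0 at the high dose (4.17%), 0 in the trend (4.65%) and 0 among the 4 groups (1.94%). At an unadjusted p under 0.05 there were 5 members at the low dose, 0 at the middle dose and 2 at the high dose, against 7.81%, 12.7% and 17.4% of all genes. For the trend 1 member was under 0.05 (17.7% of all genes), and for any difference 2 were (11.7%). The members varied together between lungs, so these are not counts of independent genes.

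At the low dose all 8 estimates were below 0, where 47.4% of all genes were lower. The median difference of the members was -1.43, against 0.01 for all genes. As the members varied together in the same lungs, 8 estimates in the same direction, here and at the other doses, are not 8 independent results. Cfd averaged 0.95 ± 2.10 at the low dose and 5.21 ± 1.53 in controls (SD, n = 5 each), a log2 difference of -4.26 ± 1.37 (SE, 95% interval -7.13 to -1.39, limma adjusted p = 0.41). Car3 averaged 0.06 ± 0.81 and 2.62 ± 1.45 in the same groups, a difference of -2.56 with an interval of -4.31 to -0.81. Fabp4, well above background on every array, differed by -2.13 (-3.72 to -0.55), and Adipoq by -1.75 (-3.34 to -0.16). At the low dose Adipoq and Car3 were well above background on 1 of 5 arrays each and Cfd on 2, so the floor limits their differences. Retn was so on 0 of 5 and has only the rough bound given above, and with Retn at that value the median of the members was again -1.43. The intervals of Lipe, Plin1 and Cidec held 0. Adjusted p ran from 0.41 to 0.73.

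At the middle dose the 8 estimates were also below 0 (50.3% of all genes were lower), with a median of -0.53, against 0 for all genes. Adipoq averaged 1.41 ± 1.54 (SD, n = 4), against 1.84 ± 1.68 in controls (n = 5), a difference of -0.43 with an interval of -2.12 to 1.26. All 8 intervals held 0, and adjusted p was 0.60 or more. These intervals are wide: for Cfd the interval of -4.49 to 1.61 spans values well below and above 0.

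At the high dose the median difference was -1.12, against -0.01 for all genes, and the 8 estimates lay below 0, as did 52% of all genes. Cidec averaged 2.67 ± 0.77 at the high dose and 3.94 ± 0.80 in controls (SD, n = 5 each). It had the lowest adjusted p of any member, 0.10 by limma, with a difference of -1.27 ± 0.42 (SE, interval -2.15 to -0.40). Car3 differed by -1.78 (-3.53 to -0.03, limma adjusted p = 0.28) and Cfd by -2.57 (-5.44 to 0.31, limma adjusted p = 0.35). At the high dose Car3 was well above background on 2 of 5 arrays and Cfd on 4 of 5, so the floor limits these differences. Per 25 mg/kg/day, the trend of Cidec was -0.37 (-0.65 to -0.10, limma adjusted p = 0.12), and that of the other members between -0.51 and -0.05 with intervals that held 0. The 3 doses share the same 5 controls, 2 of which were the highest lungs of the series, so the directions at the 3 doses are not independent of each other.

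**Figure D4:**
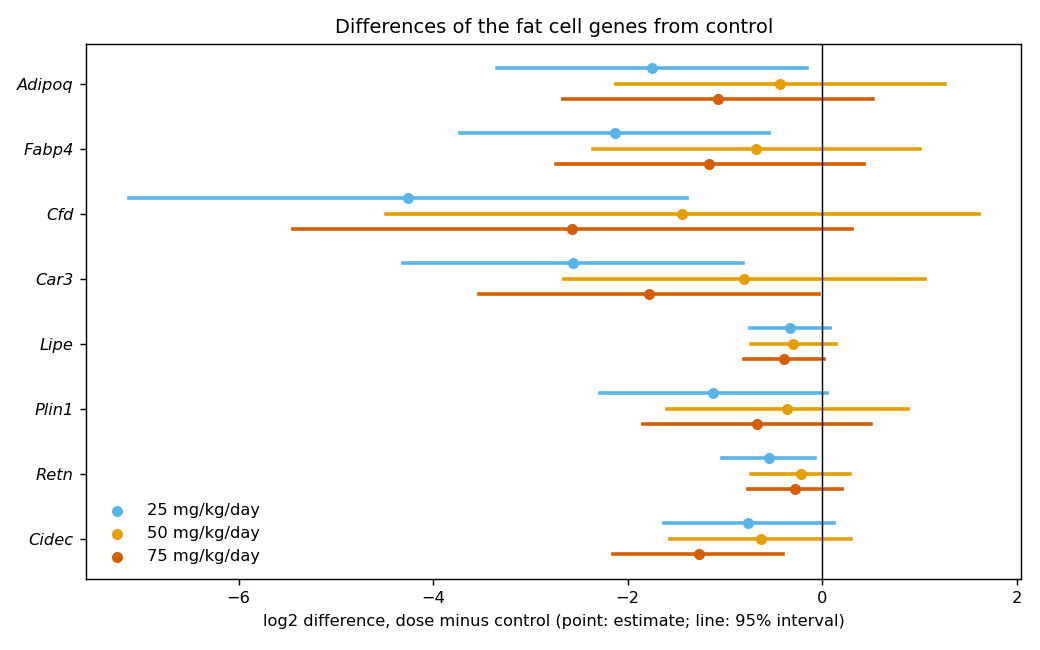
Log2 difference of each fat cell gene from control at the 3 doses in mg/kg/day (points, limma estimates, and lines, 95% intervals, n = 5, 4 and 5 against 5). All 24 points lie left of 0, and all 8 lines at the middle dose cross 0. Retn at the low dose was not well above background on any array, so its point there is a fitted value and not a measured difference, and no difference passed an adjusted p of 0.05.

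Within slides that held both, the lung at the low dose was lower than its slide's control on 4 of 4 slides for every member except Lipe, which was lower on 3 of 4. Mouse 8, the highest lung at the low dose with a mean of 1.82 over the members, did not enter this count. It lay on slide 3, which held no control, as did mice 15 and 16. At the higher doses the slides disagreed. Mouse 20 at the high dose was higher than control 1 of its slide in 7 of 8 genes, and mouse 14 at the middle dose higher than control 2 in 7 of 8. Mice 17, 18 and 19 at the high dose were each lower than their slide's control in 8 of 8 genes, mouse 12 at the middle dose in 7 of 8 and mouse 13 in 5 of 8. Some of these differences, at the low dose too, are between readings at the floor. On slide 2, control 3 and mice 10 and 17 were not well above background for Adipoq, Plin1 and Retn. On slide 5 the same held for Retn in control 1 and mice 6 and 12. The share of all genes lower on every slide was not counted. With slide as a block in the fit 0 members passed at any dose. The lowest adjusted p was then 0.25 at the low dose, 0.32 at the middle dose and 0.086 at the high dose, and 0.0725%, 2.12% and 9.19% of all genes passed at these doses.

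The calls at the high dose depended on the arrays used. Without the 4 arrays marked for evaluation, a setting chosen after the values were seen, 6 of 8 members passed as lower at the high dose, against 4.98% of all genes that passed in either direction. This fit held 4 mice at the high dose against 3 controls, and the 6 calls are not independent of each other. Limma gave Cidec -1.97 (adjusted p = 0.0072), Car3 -3.36 (0.012), Adipoq -2.68 (0.022), Fabp4 -2.71 (0.025) and Cfd -4.70 (0.039) as log2 differences with adjusted p, while Plin1 (-1.74, adjusted p = 0.056) and Lipe (-0.52, 0.15) were not called. Of these 4 mice at the high dose Adipoq, Car3 and Plin1 were well above background in 1 and Cfd in 3, so the floor limits their differences. Retn, the remaining call (limma adjusted p = 0.017), was well above background in 0 of the 4, against 3 of 3 controls, and was at least 1.66-fold lower at the high dose. Its mean log2 lung intensities were 6.12 at the high dose and 6.85 in these controls. At the low dose 0 were called in this setting (0.0155% of all genes), with adjusted p of 0.11 to 0.29, and at the middle dose 0 (0.497%). The trend called Cidec alone (adjusted p = 0.034, 4.95% of all genes), and 6 members differed among the 4 groups (1.95%). The marked arrays include controls 1 and 3, whose means over the members were 1.64 and 1.40, against 2.15 to 3.93 in the other controls, as well as mouse 20, at 3.33 the highest treated lung, and mouse 12, at 0.55. Leaving out mouse 20 alone gave 1 called member at the high dose (5.07% of all genes), Cidec at -1.59 (limma adjusted p = 0.024), which was also the 1 member called in the trend (5.22%). With the processed signals of the scanner software Lipe alone passed at the high dose (-0.57, limma adjusted p = 0.03), where 7.51% of all genes passed.

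Dose group held 31.7% of the variance of the mean over the 8 members and slide 33.5%, where the medians over all genes were 16.8% and 44.9%. By gene the share of dose group ran from 18.5% in Plin1 to 36% in Car3, and that of slide from 17.9% in Retn to 73% in Lipe. These shares overlap, since each slide held a different mix of doses. The share of dose group in the mean was 70.3% without the 4 marked arrays and between 25% and 44.6% when each mouse was left out in turn. The SD over all lungs was 2.76 for Cfd and 0.35 for Lipe, which was above the SD of 91.6% of all genes, and those of the other members lay above 95.2% or more.

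Other genes of fat cells were read from a list of 40, of which 38 were on the array under these names and 33 tested. Only Sncg, a synuclein also expressed in neurons, passed a test. It was higher at the high dose by 1.20 (limma adjusted p = 0.0024) and in the trend by 0.45 per 25 mg/kg/day (adjusted p = 0.00072), and its r with the mean over the 8 members was 0.05. That is 1 of 33 genes in each of these tests, against 4.17% of all genes at the high dose and 4.65% in the trend. The median difference of the list was -0.09, -0.04 and -0.07 from the low to the high dose, and the median r of its genes with the mean over the members was 0.24, against -0.02 for all genes (quartiles -0.19 and 0.18). Such values of r, here and in the next paragraphs, describe 19 arrays that share the same lungs and slides, and carry no test.

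The list divided by how closely its genes followed the members. Plin4, another coat protein of lipid droplets, had r = 0.89 (rho 0.93) and ran from -1.28 in mouse 12 to 2.50 in control 5. Slc2a4, the insulin-responsive glucose transporter of fat and muscle, had r = 0.88 and ran from 0.14 to 3.94. Acsl1, an acyl-CoA synthetase, had r = 0.86, Thrsp, a regulator of lipid synthesis, 0.82, Mrap, an accessory protein of melanocortin receptors, 0.81, and Dgat2, which makes triglyceride, 0.79. Fah (-0.26) and Tmem120b (-0.52) had the lowest r. Pparg, which alveolar macrophages also express, had r = 0.31 and a range of 0.63. Lep and Adig were well above background on 0 of 19 arrays, Aqp7 and Acacb on 1 and Tshr on 2.

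Among all genes, the 10 most like the mean over the members included genes of striated muscle and brown fat. Of the 19307 genes outside the members, 80 had r above 0.8 and 2 below -0.8. At the low, middle and high dose 0 of the 80 passed, against 0.0518%, 1.09% and 4.17% of all genes. These 80 were picked for following the members, which did not pass either, so this count is no separate result on dose. The 10 highest were Cox7a1 (0.92), a muscle and brown fat subunit of cytochrome oxidase, Ckmt2 (0.92), a mitochondrial creatine kinase of muscle, Cidea (0.92), a lipid droplet protein of brown fat, Tmem45b (0.92), Csrp3 (0.91), a muscle LIM protein, Lum (0.90), the matrix proteoglycan lumican, Myoz2, Myom2 and Actc1 (0.90 each), which encode proteins of the sarcomere, and Mb (0.89), myoglobin. Without the 2 lungs farthest from the median their r was 0.83 to 0.90. Ckmt2 ran from -0.12 in mouse 18 to 5.69 in mouse 13, and Mb from -0.19 in mouse 12 to 4.93 in control 5. The differences of Cox7a1 from control were -1.40, -0.19 and -1.27 from the low to the high dose, with adjusted p of 0.29 or more.

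Marker lists of brown fat and cardiac muscle were also high in these lungs. The 6 brown fat genes tested of 10 had a median r of 0.86, with 4 above 0.8. Their mean ran from 0.81 to 2.47 in controls, 0.55 to 0.91 at the low dose, 0.54 to 2.56 at the middle dose and 0.39 to 1.68 at the high dose. Ucp1, the defining gene of brown fat, was well above background on 3 of 19 arrays, Elovl3 on 2, and Kng2 and Otop1 on 0. None of these was tested. Among the genes tested, Cox7a1 belongs to muscle as well, so the mean of this list is not specific to brown fat. The 11 cardiac muscle genes had a median r of 0.78, with means of 1.63 to 3.72 in controls, 0.65 to 1.82 at the low dose, 0.10 to 3.99 at the middle dose and 0.13 to 3.13 at the high dose. Myh6, the cardiac myosin heavy chain, was well above background on every array and ran from 2.45 in mouse 19 to 5.52 in mouse 13.

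The 11 skeletal muscle genes had a median r of 0.45, and of 0.30 without 2 lungs. Control 5 had a mean of 5.23, against -0.83 to 0.38 in all other lungs. Acta1, skeletal alpha actin, was 6.43 in control 5, 1.96 in mouse 13 and between -2.46 and -0.37 elsewhere. Car3, which skeletal muscle expresses too, was 3.91 in control 5 and 4.20 in control 4. In control 4 Acta1 was -1.41, while Ckm, the muscle creatine kinase, was 1.93 and Myh4, a fast skeletal myosin heavy chain, 4.07. Myh4 was 5.35 in control 5 and 4.56 in mouse 13, and Ckm 5.58 and 2.93 in these lungs. None of the 28 tested genes of these 3 lists was called at any dose. Of all genes 0.0518%, 1.09% and 4.17% were called from the low to the high dose, so 0 of 28 says little about the lists. The median differences of the lists at the high dose were -0.58 for brown fat, -1.34 for cardiac muscle and -1.53 for skeletal muscle, beside -1.12 for the members.

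**Figure D5:**
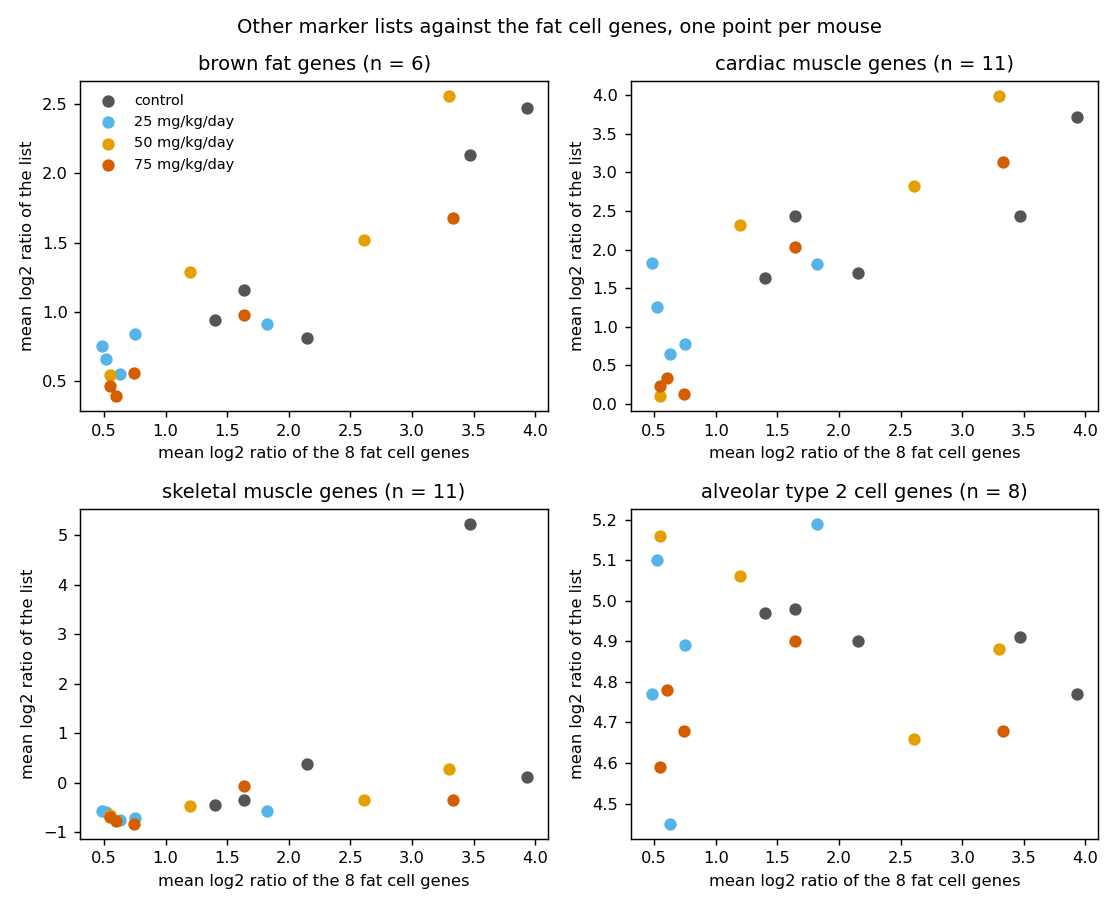
Mean log2 ratio of 4 marker lists (vertical axes) against the mean log2 ratio of the 8 fat cell genes (horizontal axes), with 1 point per mouse coloured by dose. Brown fat and cardiac muscle genes are higher in lungs with higher fat cell genes, the mean of skeletal muscle genes is at 5.23 in control 5 and at or below 0.38 elsewhere, and alveolar type 2 genes lie between 4.45 and 5.19 throughout.

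Lists of lung cells, and a list of thymus genes, did not follow the members in this way. Of 7 thymus genes on the array only 2 were bright enough to be tested. The median r was 0.05 for 8 genes of alveolar type 2 cells, -0.14 for 4 of alveolar type 1 cells, -0.06 for 10 of capillary endothelium, 0.09 for 10 of alveolar macrophages, 0.20 for 7 of B cells, 0.12 for 2 thymus genes, -0.17 for 7 of mesothelium and -0.06 for 6 of lipofibroblasts, the lipid-bearing fibroblasts of the lung. An exception was Scgb3a1, a secretoglobin of larger airways, on the club cell list, with r = 0.85 (rho 0.89). It ran from 1.00 in mouse 12 to 6.08 in mouse 13, with 6.08 also in mouse 20 and control 4. The other club cell genes tested, Scgb1a1 and Cyp2f2, had r of 0.31 and 0.22. Some genes of these lists passed a test of dose, which the members did not. At the high dose Gpihbp1, which holds lipoprotein lipase on capillary endothelium, fell by 1.42 ± 0.19 (SE, limma adjusted p = 1e-04) and Ednrb, an endothelin receptor, by 1.24. At this dose Cd79b of the B cell receptor also fell, by 0.62, and Pdgfra of fibroblasts, by 0.42. Dntt, the terminal transferase of developing lymphocytes, which is on the thymus list, fell by 0.46. Car4, a carbonic anhydrase, rose by 0.66 at the middle dose. In the trend per 25 mg/kg/day the macrophage receptor Marco (0.62) and the endothelial adhesion gene Pecam1 (0.15) rose and the chitinase-like gene Chil3 (-0.47) fell.

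The labels describe the tissue as a part of the lung, and which part was taken from each mouse is not known here. The part that adjoining fat, muscle or airway has in the values of the members was not tested.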

How the data were processed

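Lung RNA of 19 mice was measured on 2-colour arrays, with lung in Cy5 and the reference in Cy3 on every array, per the labels, so dye effects are shared by all groups. The authors deposited the scanner intensity files, which Feature Extraction 10.7.3.1 had written, per the file headers. Median spot and background intensities were used here. Feature Extraction's processed intensities and the authors' deposited table of log2 ratios served as alternatives. Against scanner ratios the columns of that table had r of 0.995 to 0.998 with lung over reference and medians of -0.053 to -0.033. Its centring by the authors is unknown here.

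Background was corrected by normexp (offset 50) and arrays normalized by loess in limma 3.58.1 (R 4.3.3), with control spots at weight 0. Outlier spots (0.29%) were left out, and 0 spots were saturated. The offset compresses ratios of dim spots. Spots of a probe were averaged, probes were named by accession through RefSeq genes (GRCm38.p6), and 23374 of 41174 matched. Probes well above background in lung on at least 4 arrays were kept, and each gene was represented by its brightest probe in lung, for 19315 genes in all. The number of arrays limits precision. All arrays were fitted together with limma (lmFit, eBayes), with Benjamini-Hochberg adjustment over all genes. Intervals are 95%. Correlations used 100000 permutations (scipy 1.17.1). The methods were tested on simulated data.

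Every p-value measures the spread between mice. The members and lists were chosen with earlier results of these data known. The text names all members, of the other fat cell genes the 6 with the highest and 2 with the lowest r with the mean over the members, the 10 most alike of all genes, and list genes that passed a test. Other genes named were chosen after their values were seen. Alternatives covered background correction, normalization, the authors' table, the filter, several probes, slide and leaving out mice.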

Additional observations from a re-analysis of the deposited data

Results flagged for a closer look

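In 6 of the 32 combinations of a member and a group, 1 lung lay far from the rest of its group by Dixon's criterion. Chance meets it in about 1 in 20 groups of normally distributed values, a rate that cannot be set against these 6. The members varied together. For Adipoq and Car3 at the low dose and Retn at the high dose, the other lungs were all not well above background, which narrows their spread. At the low dose this was mouse 8, with Adipoq at 0.76 (the others -0.19 to 0.07), Cfd at 4.69 (-0.17 to 0.42) and Car3 at 1.50 (-0.43 to -0.22). At the high dose it was mouse 20, with Plin1 at 2.35 (the others -0.10 to 0.30) and Retn at 1.13 (-0.18 to -0.03). At the middle dose it was mouse 13, with Lipe at 1.15 (0.65 to 0.70). The array of mouse 20 was among those marked for evaluation, and those of mice 8 and 13 were not.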

How the results depend on the processing

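Over 29 or fewer alternatives each member was lower than control at the lowest and the highest dose, and at the middle dose the direction turned in 4 cases. There Adipoq ranged from -1.02 to 0.07 and Plin1 from -0.8 to 0.09 when mice were left out in turn. They were above 0 without mouse 12 (0.03 and 0.01) and without control 4 (0.07 and 0.09). The count of called members was 0 in each test with most settings. It was 1 at the high dose with Feature Extraction's processed signals (Lipe, -0.57, limma adjusted p = 0.03, 7.51% of all genes called). When mice were left out in turn it ranged from 0 to 1 at the high dose and from 0 to 1 in the trend, and the 1 came without mouse 20. Without the 4 marked arrays it was 6 at the high dose, 1 in the trend and 6 among the 4 groups, and the dose share of the mean was 70.3%. The cause was not tested. The median pairwise r was 0.82 to 0.86 without 1 mouse, and 0.64 without the 5 highest lungs. The dose share ran from 25% to 44.6% without 1 mouse. With probes required on at least 10 arrays, Retn was not tested. The groups share no mouse numbers, so no fit was paired by number, and with slide as a block 0 members were called. Adipoq, Cfd, Car3, Plin1 and Retn were at background in many lungs, which bounds how low they can be read.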
